A study of Mus musculus with 6 samples.

Results

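The Hox genes of the Hoxa, Hoxb, Hoxc and Hoxd clusters were followed on 6 arrays of lumbar spinal cord from mouse embryos. Members were taken by name, as the genes whose array row carried a single symbol made of Hox, a cluster letter and a number. The rule gave 37 of the 19938 genes tested, from 37 rows, with no measured value used in the choice. Hoxb8 lay in a row shared with Hoxb7 and so was not a member. RNA came from lumbar cord dissected at E15.5 in strain SV129. There were 3 wild-type samples and 3 samples labelled TNC -/-, called knockout here, and each was hybridised to 1 whole-transcript array. TNC is tenascin-C, a large extracellular matrix glycoprotein. The labels call the samples biological replicates but do not give litters, pooling or the structure of the deleted allele. All levels below are RMA signals on the log2 scale.

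Hox genes encode homeodomain transcription factors that give segments of the body axis their identity. Each cluster is ordered along its chromosome from paralog group 1 to group 13, and low numbers are first expressed early and reach far forward, while high numbers are confined towards the tail. In the spinal cord, groups 4 to 8 pattern cervical and brachial levels, groups 8 and 9 thoracic levels, group 10 the lumbar cord and its limb-innervating motor neurons, and group 13 the sacral and caudal end. Hox proteins bind DNA together with Pbx and Meis partners. Their expression borders are set by retinoic acid, FGF and Cdx signals and then held by Polycomb and Trithorax chromatin complexes.

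The comparison of knockout with wild type addresses whether the axial code of the cord differs between the genotypes. Array medians lay between 6.96 and 7.10. Tnc read 10.72, 10.22 and 10.02 in wild type and 9.64, 9.76 and 9.47 in knockout, a log2 difference of -0.69 with an exact permutation p of 0.1, the smallest that 3 arrays against 3 allow. The knockout signal was thus 61.8% of the wild-type signal and far above background. Which part of the gene was deleted, and whether the row's probes lie in it, is not given in the labels, so these values do not show that the protein was absent. By limma with Benjamini-Hochberg adjustment, 0 of 19938 genes passed an adjusted p of 0.05 (0.0%), and 339 (1.70%) had an unadjusted p under 0.05. Y-linked genes read high on knockout replicates 1 and 3 only (means of 8.20 and 7.86 against 4.32 to 4.48 elsewhere), so sex and genotype were not balanced. All 13 spinal cord markers lay above the background guide of 6.13, a level that 95% of 1194 odorant and vomeronasal receptor genes, silent in cord, fell short of. Of 9 forebrain and midbrain markers 4 did not lie above it, among them Otx2 (5.31) and Tbr1 (5.17). The 5 above it were Emx1 (7.55), Dlx2 (6.54), Six3 (6.43), and Lhx2 (8.90) and En1 (8.08), which also mark spinal interneurons. Wild-type replicate 1 stood apart from the other arrays in the Hox genes themselves, as described next, so results are given with and without it.

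At least 1 member of every paralog group had a mean above the background guide. The mean over the 6 arrays was above the background guide for 36 of 37 members, against 14686 of all 19938 genes. The exception was Hoxd1, at 5.99, a group 1 gene of the hindbrain and of sensory neurons, which passed the guide on 1 array. By paralog group, the members' means ran from 5.99 to 7.32 in group 1, from 8.55 to 10.68 in group 2 and from 8.31 to 11.55 in group 3. They ran from 8.09 to 8.84 in group 4, from 7.31 to 10.48 in group 5, from 8.45 to 10.44 in group 6 and from 10.21 to 10.72 in group 7. Groups 8, 9 and 10 ran from 8.43 to 12.03, from 9.70 to 12.53 and from 10.20 to 12.31, group 11 from 8.22 to 11.22, group 12 from 6.66 to 12.80 and group 13 from 6.54 to 10.30. Each gene has its own probes, with their own efficiency, so these ranges give the level of the rows and do not rank genes against each other. The forebrain marker Emx1, with a mean of 7.55, also lay above the guide, so passing it does not by itself show expression. The row shared by Hoxb8 and Hoxb7 read between 12.58 and 12.81 on the 6 arrays.

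**Figure D1:**
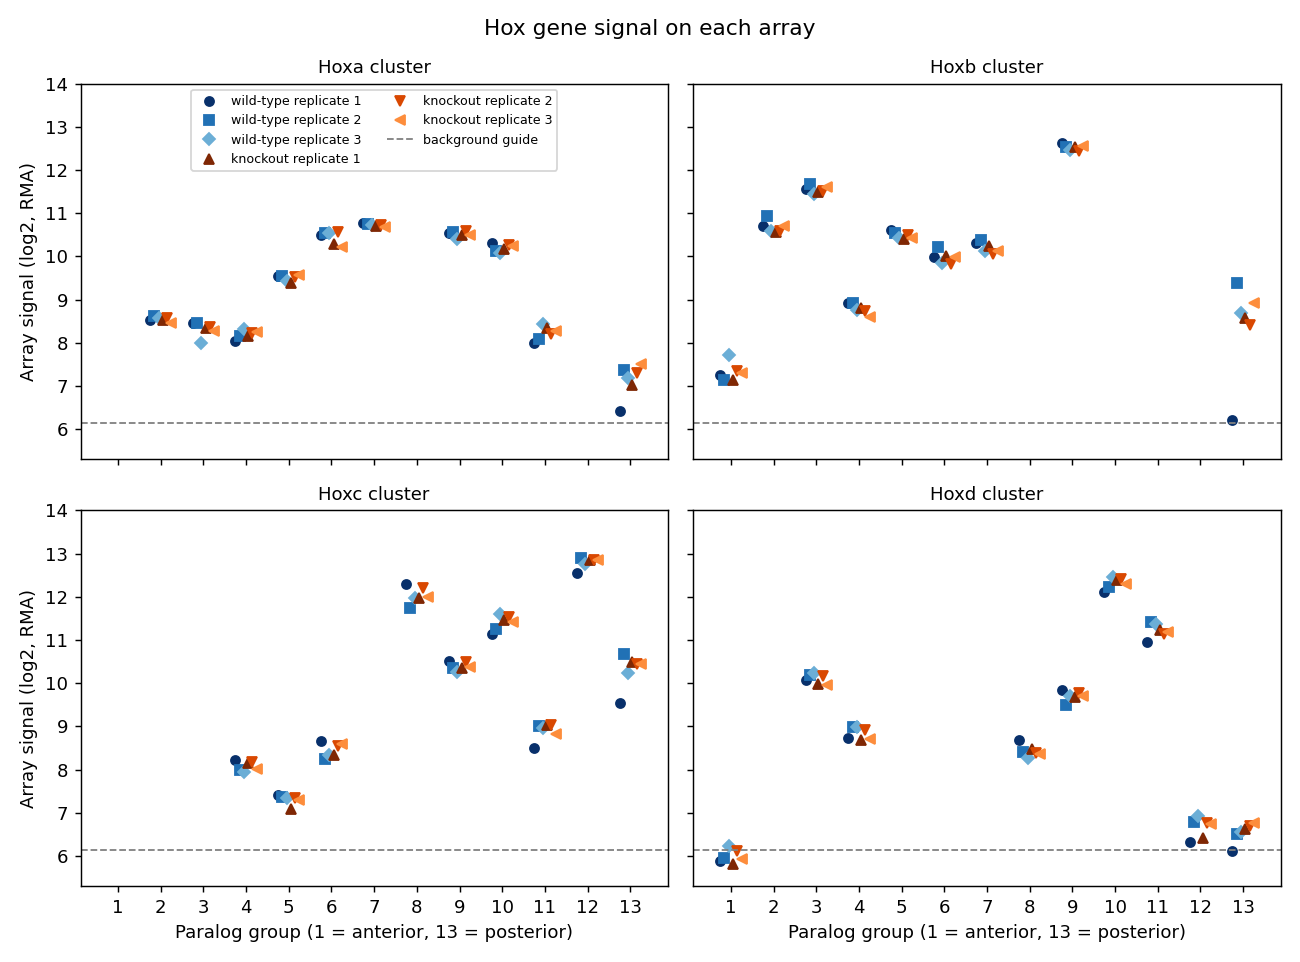
Log2 array signal of the 37 Hox genes (vertical axis) against paralog group (horizontal axis), 1 panel per cluster, 1 symbol per array, with the background guide dashed. The 6 arrays overlie each other for most genes, and wild-type replicate 1 (dark circles) falls away from the rest in group 13.

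What can be compared is each gene with itself across arrays. Taken as the deviation from the gene's own mean over the 6 arrays, wild-type replicate 1 had an axial profile unlike that of the other arrays. Its mean deviation was -0.003 over groups 1 to 4, 0.08 over groups 5 to 7, 0.15 over groups 8 and 9, -0.23 over groups 10 to 12 and -1.02 over group 13. It was the highest of the 6 arrays for 5 of 6 members of groups 8 and 9, where 19.0% of all genes have it highest. For groups 10 to 12 it was the lowest array for 7 of 8 members, and for group 13 for 4 of 4, where 29.0% of all genes have it lowest. Groups 1 to 4 had it lowest for 1 of 11.

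The other 5 arrays had flatter profiles by a straight line, though their means also moved along the axis. Wild-type replicate 3 had a mean deviation of -0.09 over groups 8 and 9 and of 0.11 over groups 10 to 12. For wild-type replicate 2 these were -0.08 and 0.02. On the knockout arrays they lay between -0.01 and 0.05 and between 0.01 and 0.06. A straight line through the 37 deviations against paralog group fell by 0.059 log2 units per group on wild-type replicate 1. On the other arrays the line rose, by 0.013 and 0.004 on wild-type replicates 2 and 3 and by 0.015, 0.007 and 0.021 on knockout replicates 1, 2 and 3. Without the 4 members of group 13, wild-type replicate 1 still fell, by 0.018 per group, and wild-type replicate 2 fell by 0.006. The remaining 4 arrays lay between 0.001 and 0.013. On wild-type replicate 1 the line fell in each cluster taken alone, by 0.041 in Hoxa, 0.139 in Hoxb, 0.089 in Hoxc and 0.024 in Hoxd. Wild-type replicate 2 stood at the other end in group 13, with a mean deviation of 0.40, followed by knockout replicate 3 at 0.32. These lines are descriptions of 6 arrays, and members of a cluster share regulation and are not independent.

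**Figure D2:**
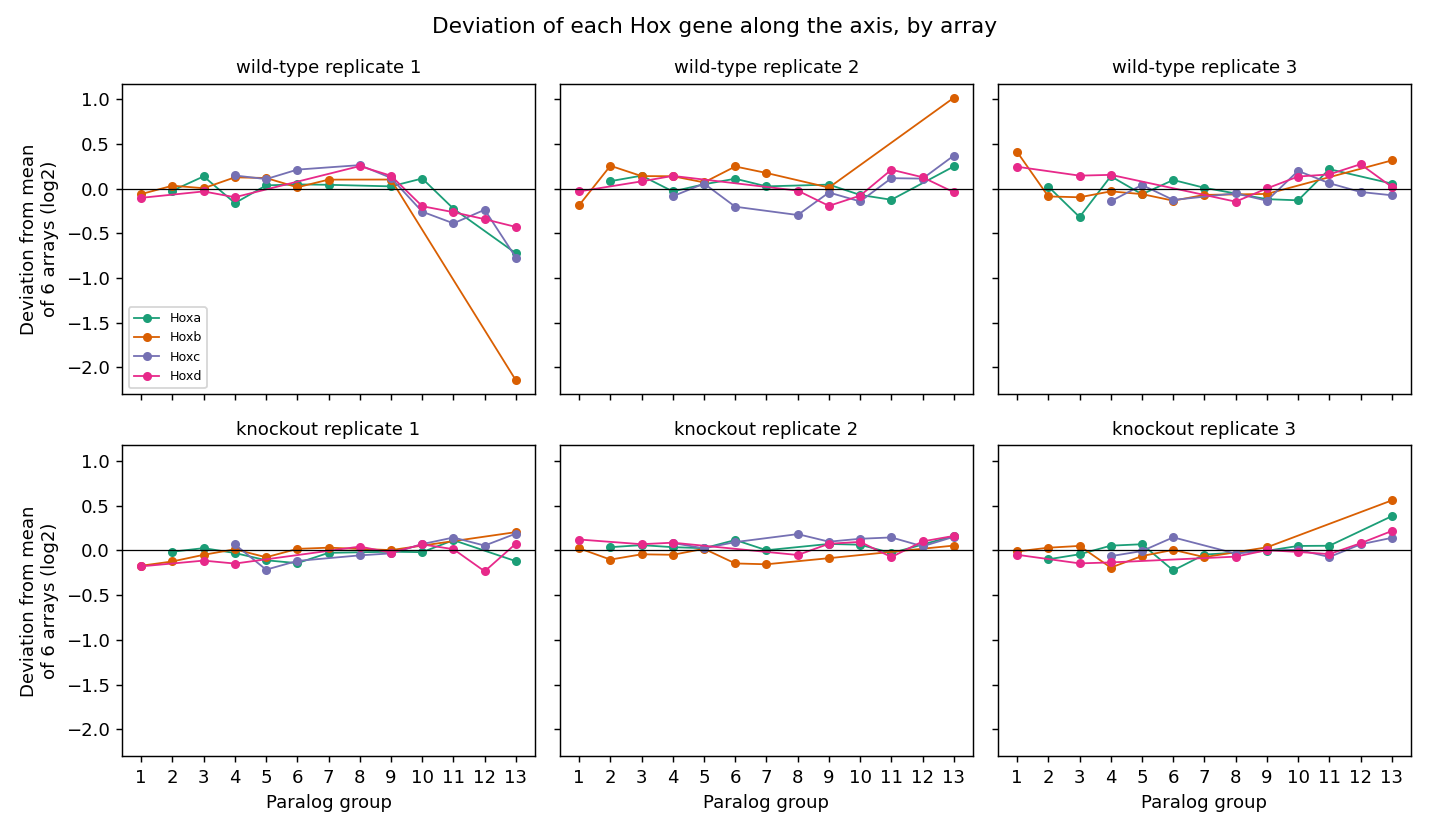
Deviation of each Hox gene from its own mean over the 6 arrays (log2, vertical axis) against paralog group (horizontal axis), 1 panel per array, lines joining the genes of a cluster. Wild-type replicate 1 rises slightly at groups 8 and 9 and then drops in all 4 clusters, reaching -2.14 for Hoxb13. No other array drops in all 4 clusters at group 13.

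Group 13 showed the widest spread between arrays. Hoxb13, which is expressed in the tail bud and the caudal end of the cord, read 6.22, 9.38 and 8.68 in wild type and 8.57, 8.42 and 8.93 in knockout. Wild-type replicate 1 was thus close to the background guide, with a gap of -2.20 log2 units to the next lowest array, and the 3 knockout arrays lay between or below the remaining pair of wild-type arrays. That gap was the largest downward gap of wild-type replicate 1 among all 19938 genes, and by standard deviation over the 6 arrays Hoxb13 ranked 6 among all genes. Hoxc13, a gene of the caudal cord and of hair and nails, read 9.53, 10.67 and 10.23 in wild type and 10.49, 10.46 and 10.44 in knockout. Its knockout arrays were nearly level (SD 0.02, n = 3) and its wild-type arrays spread widely (SD 0.57, n = 3). Hoxa13, best known from the distal limb and the hindgut, read 6.41, 7.38 and 7.19 in wild type and 7.01, 7.30 and 7.52 in knockout. Hoxd13, which acts with Hoxa13 in digits and genitalia, gave 6.11, 6.50 and 6.56 in wild type and 6.62, 6.70 and 6.76 in knockout, so that all 6 values were within 0.65 log2 units. Wild-type replicate 1 was below the guide there and the groups did not overlap.

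**Figure D3:**
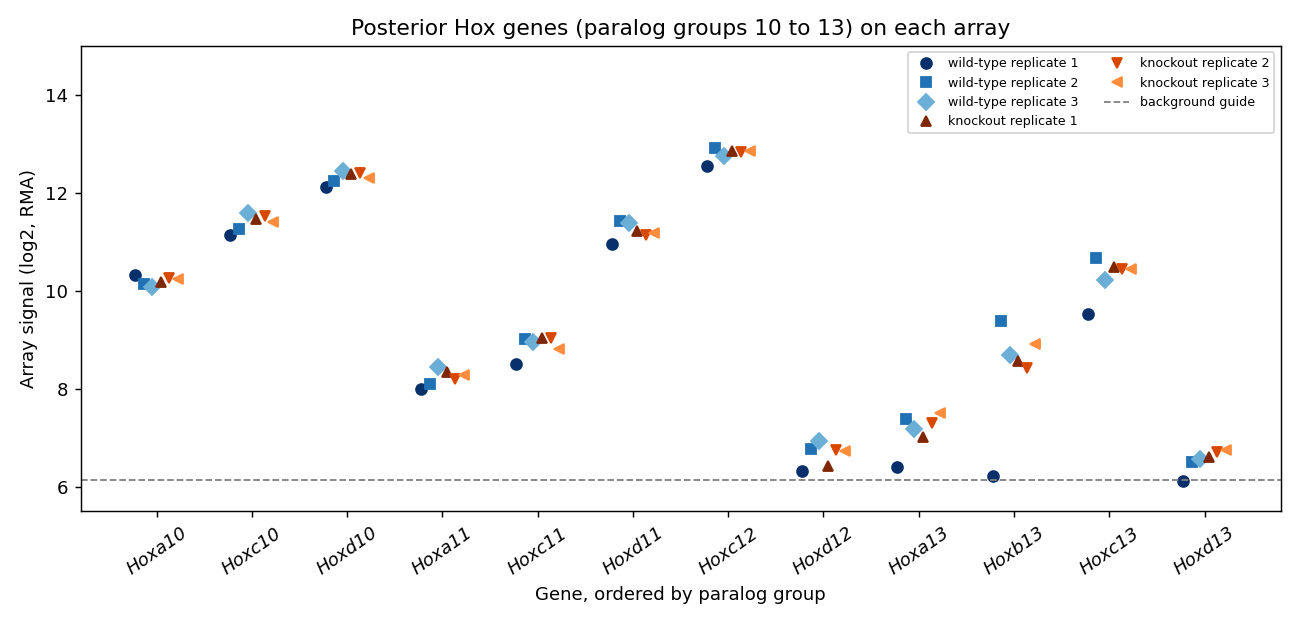
Log2 array signal (vertical axis) of the 12 members of paralog groups 10 to 13 (horizontal axis), 1 symbol per array, with the background guide dashed. Wild-type replicate 1 is the lowest symbol for every gene except Hoxa10, and its distance from the others is largest at Hoxb13.

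Across the transcriptome, wild-type replicate 1 lay more than 0.5 log2 units below every other array for 23 genes (0.115%), and 3 of these were Hoxb13, Hoxc13 and Hoxa13. It lay as far above every other array for 16 genes (0.0802%), none of them a Hox member. Wild-type replicate 3 also stood apart, with 15 genes as far below and 35 as far above every other array, and the other 4 arrays had 0 to 6 below and 1 to 8 above. The caudal progenitor gene Nkx1-2 was also among the 23, at rank 18 with a gap of -0.52 log2 units. Ctla2b, Corin, Sox14 and the odorant receptor genes Olfr1347, Olfr1331 and Olfr603 were there too, so the 23 were not limited to caudal genes. These genes are named after their values were seen. Many marker lists had their lowest mean on that array. Among them were forebrain and midbrain (6.37 against 6.51 to 6.84 elsewhere), dorsal root ganglion (6.96), skeletal muscle (6.47), cartilage and bone (6.22), neural crest glia (7.96) and the upstream inducers (7.45), so low means there were not limited to posterior tissue. Of 6 limb bud and posterior mesoderm markers 4 were lowest there, and the list's mean was 6.63 on it against 6.83 to 7.09 on the other 5 arrays. Those were Tbx4, Pitx1, Prrx1 and Msx1, while Tbx5 and Shox2 had knockout arrays lowest. Prrx1 read 7.05 there against 7.34 to 7.80 elsewhere, and Tbx4 was below the background guide there. Spinal cord markers had a mean of 9.55 on that array and of 9.69 to 9.76 on the others, with 8 of 13 lowest there. The part of other tissues, of the dissected length of cord and of array quality in these values was not tested. In bulk tissue fewer cells of a level and less RNA per cell cannot be told apart.

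The start regions of group 13 genes are shown because all 4 members were lowest on wild-type replicate 1. On the other arrays they did not move together, since wild-type replicate 2 deviated by 0.25 for Hoxa13 and by -0.04 for Hoxd13. RefSeq sequences of the 250 bases before the start were at hand for Hoxa13 and Hoxd13. They are written 5′ to 3′ on the gene's strand with CG dinucleotides in capitals, since Hox promoters are rich in CG and Polycomb complexes are known to gather at such regions.
Hoxa13 (GRCm38.p6, chr6:52260881-52261130, minus strand): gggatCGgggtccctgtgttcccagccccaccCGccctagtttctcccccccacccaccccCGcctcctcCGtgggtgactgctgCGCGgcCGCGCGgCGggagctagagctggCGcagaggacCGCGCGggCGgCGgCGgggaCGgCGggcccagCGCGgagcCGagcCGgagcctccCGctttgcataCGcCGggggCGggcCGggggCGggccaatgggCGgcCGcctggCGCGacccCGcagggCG
Hoxd13 (GRCm38.p6, chr2:74667975-74668224, plus strand): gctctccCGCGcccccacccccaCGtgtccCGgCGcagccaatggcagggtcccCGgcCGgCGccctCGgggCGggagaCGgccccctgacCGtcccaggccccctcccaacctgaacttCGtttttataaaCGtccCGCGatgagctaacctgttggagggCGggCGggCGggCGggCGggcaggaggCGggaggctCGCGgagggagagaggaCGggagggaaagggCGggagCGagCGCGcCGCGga
The Hoxa13 window holds 35 CG dinucleotides and the Hoxd13 window 31. Of all 32851 promoter windows of that length in the table, 92.1% hold at least 1, while 2.97% hold as many as Hoxa13 and 5.19% as many as Hoxd13. The motif CG reads the same on both strands. Over the 23 windows of 21 members that matched, the count ran from 2 (a Hoxd11 start) to 35, with a median of 13, and 18 windows were above the median of 6 over all promoters. CG content describes these windows and was not tested against the levels.

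Among groups 10 to 12, the drop on wild-type replicate 1 was smaller and touched both abundant and dim rows. Hoxc10 and Hoxd10, which set lumbar motor neuron identity, read 11.14 and 12.12 on wild-type replicate 1. On the other 5 arrays Hoxc10 lay between 11.26 and 11.60 and Hoxd10 between 12.23 and 12.45. Hoxa10, their partner in the same group, went the other way, with wild-type replicate 1 the highest array at 10.32 and the others between 10.07 and 10.27. In group 11, whose members act in the kidney, forelimb and lumbosacral axis, Hoxc11 read 8.51 on wild-type replicate 1 and 8.82 to 9.04 elsewhere, and Hoxd11 10.95 against 11.14 to 11.43. Hoxa11 had a gap of -0.10 log2 units between that array and the others, which read 8.10 to 8.44. Hoxc12 read 12.56 there and 12.76 to 12.91 elsewhere, and Hoxd12 6.31 against 6.42 to 6.93. So 7 of these 8 genes had the same array at the bottom, and none of their wild-type and knockout groups stood apart.

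In groups 8 and 9 the same array was high. Hoxc8, which patterns the brachial and thoracic cord, read 12.29, 11.73 and 11.97 in wild type and 11.97, 12.21 and 11.99 in knockout. Hoxd8 read 8.68 on wild-type replicate 1 and 8.28 to 8.47 elsewhere, and Hoxd9 9.84 against 9.50 to 9.77. Hoxc9, which holds the thoracic motor neuron fate, read 10.51 there and 10.25 to 10.48 elsewhere. Hoxb9 read 12.63 there and 12.44 to 12.56 elsewhere. Hoxa9, the sixth member, had knockout replicate 2 highest at 10.58, and its 6 values spanned only 0.19 log2 units.

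Knockout against wild type gave no call among the Hox genes. By limma with Benjamini-Hochberg adjustment over all genes, 0 of 37 members passed an adjusted p of 0.05. Of the members 18 were higher and 19 lower in knockout, with a median log2 difference of -0.01, beside 9253 higher (46.4%) and 10674 lower (53.5%) with a median of -0.007 over all genes tested. An unadjusted p under 0.05 was reached by 1 member (against 1.70% of all genes), Hoxd13, which was higher (0.933% of all genes in that direction), and the groups did not overlap for 3 members, against 5.82% of all genes. That count of 1 became 5 when wild-type replicate 3 was left out, 2 when wild-type replicate 2 was, and 0 when knockout replicate 1 or 3 was. Over all 19938 genes the count was 1377, 256, 244 and 296 in these settings, against 339 with all arrays. The median standard error of a member's difference was 0.10, close to the 0.09 over all genes. Outside group 13 no member differed by more than 0.17 log2 units in either direction.

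The 4 members of group 13 had the largest differences, all upward in knockout, and most of their size depended on wild-type replicate 1. Hoxb13 averaged 8.10 ± 1.66 over the wild-type arrays and 8.64 ± 0.26 over the knockout arrays (SD, n = 3 per group), a difference of 0.54 whose standard error was 0.69 and whose 95% interval ran from -1.05 to 2.13. Hoxc13 differed by 0.32 (interval -0.24 to 0.88), Hoxa13 by 0.28 (-0.28 to 0.84) and Hoxd13 by 0.30 (0.02 to 0.58). Hoxd13 was the member with the unadjusted p under 0.05, at 0.0391, and its limma adjusted p was 1. Without wild-type replicate 1 the difference was -0.39 for Hoxb13, 0.01 for Hoxc13, -0.01 for Hoxa13 and 0.16 for Hoxd13, none with an unadjusted p under 0.05. The median over the 4 genes was 0.31 with all arrays and 0.0008 without that array, and it ran up to 0.53 without wild-type replicate 2. With array weights 3 of the 4 were lower, with a median of -0.08. With a sex term, which leaves only knockout replicate 2 to be set against wild type, the 4 differences lay between 0.30 and 0.32.

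**Figure D4:**
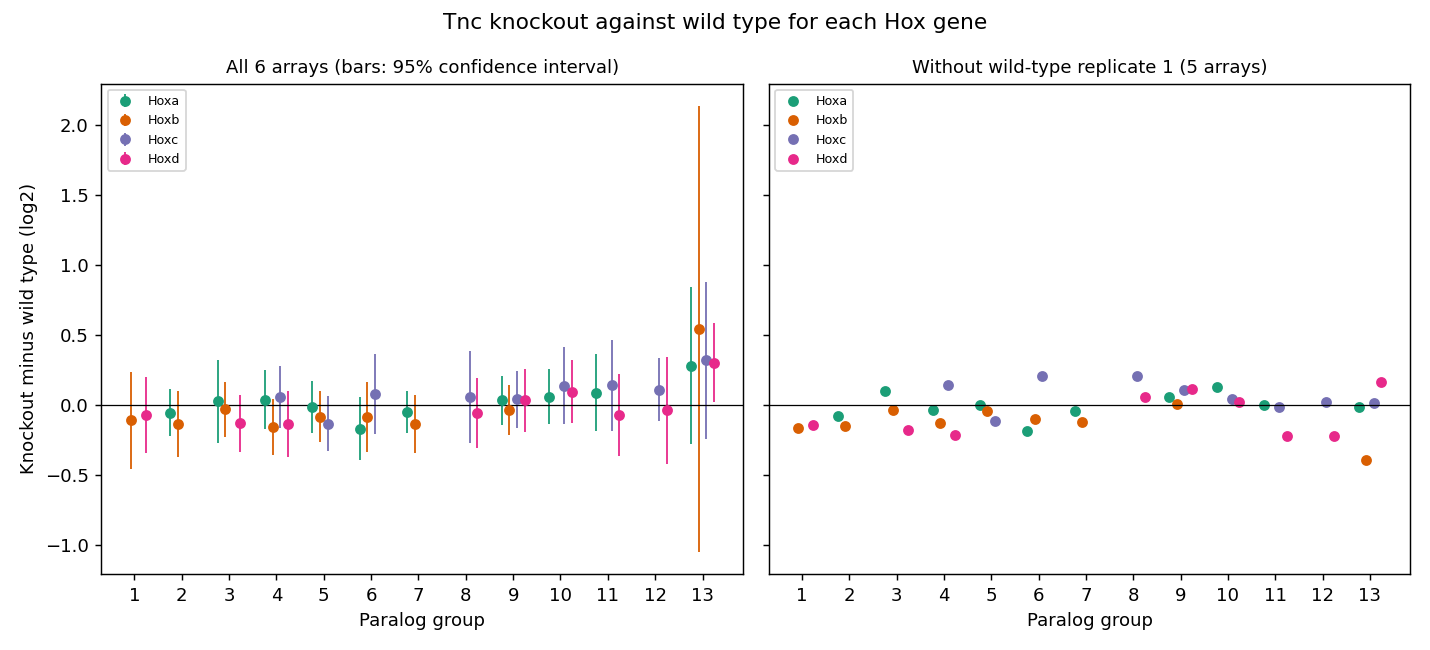
Log2 difference of knockout minus wild type (vertical axis) for each Hox gene against paralog group (horizontal axis), coloured by cluster, with all 6 arrays and 95% confidence intervals on the left and without wild-type replicate 1 on the right. The upward step at group 13 (0.28 to 0.54 on the left) is not seen on the right, where the 4 genes lie between -0.39 and 0.16.

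In groups 10 to 12, 6 of 8 members were higher in knockout, with a median of 0.09. The highest were Hoxc11 (0.14), Hoxc10 (0.14), Hoxc12 (0.11) and Hoxd10 (0.09), and Hoxd11 and Hoxd12 stood at -0.07 and -0.04. Without wild-type replicate 3 the median was 0.15 with 7 of 8 higher. Without wild-type replicate 1 the median was 0.009 with 4 of 8 higher, and Hoxc11 was at -0.02. In that same setting Hoxd11, at -0.22, was the only member of 37 with an unadjusted p under 0.05 (0.0232, limma adjusted p 0.999). Over all 19938 genes 663 had one there. In groups 8 and 9, 4 of 6 were higher, none by more than 0.06. Without wild-type replicate 1 all 6 were higher, with a median of 0.08, Hoxc8 at 0.20 being the highest, while without wild-type replicates 2 or 3 only 2 of 6 were higher.

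Anterior members leaned the other way. In groups 1 to 4, which reach into the hindbrain, 8 of 11 members were lower in knockout, with a median of -0.07. In groups 5 to 7, which pattern cervical and brachial levels, 7 of 8 were lower, with a median of -0.08. None of these 19 had an unadjusted p under 0.05 with all arrays. Without wild-type replicate 3, 2 of them did and the median of groups 5 to 7 was -0.14, without knockout replicate 2, 1 did, and with array weights 6 did. Over all 19938 genes these settings gave 1377, 220 and 4181 such genes, against 339 in the main fit. Hoxb4, known from the hindbrain border and from blood stem cells, read 8.92, 8.93 and 8.76 in wild type and 8.81, 8.75 and 8.60 in knockout, a difference of -0.15 (interval -0.35 to 0.05) with overlapping groups. Hoxa6 read 10.49, 10.55 and 10.54 in wild type and 10.30, 10.56 and 10.22 in knockout, a difference of -0.17 (interval -0.39 to 0.06). Knockout replicate 2, the array of that group without Y-linked signal, was level with wild type for this gene. For groups 1 to 4, leaving out wild-type replicate 1 gave a median of -0.13, leaving out knockout replicate 2 gave -0.11 and leaving out wild-type replicate 2 gave -0.04. With a sex term Hoxa6 differed by 0.03, and 10 of the 19 members of groups 1 to 7 were then higher. Without wild-type replicate 1, 15 of the 19 were lower, as with all arrays.

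Hoxa7 and Hoxc5 were the only members whose knockout arrays all lay below the wild-type arrays. Hoxa7 read 10.76, 10.75 and 10.73 in wild type and 10.69, 10.72 and 10.68 in knockout. Its difference of -0.05 was small, with an interval from -0.20 to 0.10. Hoxc5 read 7.42, 7.37 and 7.35 in wild type and 7.10, 7.34 and 7.31 in knockout, a difference of -0.13 with an interval from -0.33 to 0.06. These 2 of 37 stand beside 2.64% of all genes with the groups apart in that direction, and Hoxd13 beside 3.18% in the other.

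Within clusters the signs of the differences were counted. In the main fit the cluster medians lay between -0.08 and 0.08, and the median standard error of a single member's difference was 0.10. Hoxb, on chromosome 11, had 8 of 9 members lower in knockout. All 8 outside group 13 were lower, from -0.15 for Hoxb4 to -0.03 for Hoxb3. Hoxc, on chromosome 15, had 8 of 9 higher, Hoxc5 being the exception. Hoxa, on chromosome 6, had 6 of 10 higher with a median of 0.03, and Hoxd, on chromosome 2, had 6 of 9 lower with a median of -0.05. With single arrays left out, Hoxb had 6 to 8 of 9 lower, with 6 and a median of -0.04 without wild-type replicate 2, and Hoxc had 6 to 8 of 9 higher, with 6 without wild-type replicates 2 or 3. Hoxa turned to 6 of 10 lower without wild-type replicates 1 or 3 and to 7 of 10 lower with array weights. Hoxd turned to 5 of 9 higher without wild-type replicate 3 and to 7 of 9 higher with a sex term. No cluster was tested as a set, and neighbouring genes of a cluster share enhancers and transcripts.

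A line through the 37 differences against paralog group rose by 0.028 log2 units per group. Leaving out wild-type replicate 1 brought it to 0.006, and leaving out wild-type replicates 2 or 3 to 0.042 or 0.037. Without group 13 it rose by 0.015 per group over all arrays and by 0.010 when wild-type replicate 1 was left out as well. Between arrays of a group the same slope had a pooled SD of 0.028, the same size as the slope of the difference.

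Genes that work with Hox proteins or set their expression gave no call either. Of 8 measured binding partners, 4 were higher and 4 lower (median -0.007, 0 past the test, 0 with an unadjusted p under 0.05). Pbx2 and Meis2, a PBC and a TALE cofactor, differed by 0.09 and 0.06, and Pknox1 by -0.10. Among 13 upstream inducers 3 were higher and 10 lower (median -0.06). The caudal genes Cdx2 and Cdx4, which switch on posterior Hox genes in the early embryo, had means of 6.16, at the background guide, and 3.70, far below it. Cdx1, of the same list, had a mean of 7.51, above the guide. Gdf11, a TGF-beta ligand that advances posterior Hox expression, differed by -0.01, and Aldh1a2, which makes retinoic acid in motor neurons and meninges, by -0.12. None of the 13 had an unadjusted p under 0.05.

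Among 18 measured chromatin regulators 4 were higher and 14 lower (median -0.04, 0 past the test). Ezh2, the Polycomb methyltransferase, differed by -0.11, and Kmt2a, the Trithorax methyltransferase, by -0.09. Kdm6a, an X-linked H3K27 demethylase that escapes X inactivation, had the largest difference of the list, -0.32 (interval -0.70 to 0.05). It read 9.89, 9.63 and 9.48 in wild type and 9.35, 9.64 and 9.04 in knockout, low on knockout replicates 1 and 3, the arrays with Y-linked signal. With a sex term it differed by -0.03. Suz12, a Polycomb subunit, read 10.61 on wild-type replicate 1 and 10.04 to 10.24 on the other arrays. Kmt2a was also highest on that array (10.97), while the Polycomb genes Ring1 and Phc2 were lowest on it (8.70 and 10.67). The list's mean was 10.01 there and 9.89 to 9.97 elsewhere, with 3 of the 18 genes lowest there. A relation to group 13 was not tested.

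Genes lying in or beside the clusters were measured too. Evx2, next to Hoxd13, read 7.81, 8.12 and 8.37 in wild type and 8.07, 8.39 and 8.21 in knockout, and Evx1, beside Hoxa13, differed by 0.09. Both were lowest on wild-type replicate 1. Hottip, a long RNA of the posterior end of Hoxa, was below the background guide on all 6 arrays (5.70 to 6.02). Of the 12 measured genes in this list of cluster neighbours and ParaHox relatives, 7 were higher and 5 lower (median 0.03, 0 past the test). The antisense RNA Hoxaas2 read 6.24 to 6.81, and a pair of Hoxd3os1 rows read 6.33 to 6.74 and 6.33 to 6.55.

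The 5 miRNA genes inside the clusters fall into 2 seed families, and their mature sequences are shown because the families are known to target Hox transcripts. They come from RefSeq (GRCm38.p6), 5′ to 3′, with the seed, bases 2 to 8, in capitals.
miR-10a-5p, from chr11:96317186-96317208 on the plus strand: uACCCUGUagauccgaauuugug
miR-10b-5p, from chr2:74726074-74726096 on the plus strand: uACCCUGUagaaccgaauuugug
miR-196a-5p, from chr11:96265187-96265208 and chr15:102973365-102973386, both on the plus strand: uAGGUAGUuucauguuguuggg
miR-196b-5p, from chr6:52230129-52230150 on the minus strand: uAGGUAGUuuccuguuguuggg
Counted from the 5′ end, the pair of miR-10 sequences differ by U12A and the pair of miR-196 sequences by A12C, both outside the seed. The rows named for these genes need not report the mature forms. Mir10b, beside Hoxd4, read 6.89 on wild-type replicate 1 and 5.94 to 6.21 on the other 5 arrays. Its difference was -0.25 with all arrays and 0.02 without that array. Mir10a, beside Hoxb4, was below the guide on every array (3.84 to 4.42). Mir196b, between Hoxa9 and Hoxa10, differed by 0.11, Mir196a-1, between Hoxb13 and Hoxb9, by -0.15, and Mir196a-2, between Hoxc10 and Hoxc9, by -0.16, with overlapping groups.

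A list of genes chosen as readouts of Hox identity at limb levels showed no call, and its genes are not all limited to those levels. Of 13 measured, 8 were higher and 5 lower (median 0.05, 0 past the test). Foxp1, the Hox cofactor that makes limb motor columns, differed by 0.06, Ret by 0.05 and Etv4, a motor pool gene, by -0.09. Nkx6-1 and Onecut1 had the largest differences, 0.25 and 0.22, with overlapping groups, and both were lowest on wild-type replicate 1 (8.20 and 8.64). Without that array they differed by 0.07 and 0.14.

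Marker lists of other tissues varied in level. Of 9 skeletal muscle markers 7 were above the guide, and the list's mean lay between 6.47 and 6.80 in wild type and between 6.53 and 6.75 in knockout. Cartilage and bone markers had means of 6.22 to 6.57 and 6.26 to 6.46 (3 of 7 above the guide), and dorsal root ganglion markers 6.96 to 7.10 and 7.06 to 7.18 (3 of 7). Meningeal markers lay at 7.67 to 7.73 in wild type and 7.53 to 7.70 in knockout, endothelial markers at 8.58 to 8.80 and 8.75 to 8.99, erythroid markers at 8.97 to 9.11 and 8.72 to 9.12, and neural crest glia markers at 7.96 to 8.13 and 8.01 to 8.12. All 6 endothelial markers were higher in knockout (median 0.16), and for Pecam1 (0.20, unadjusted limma p 0.0421) and Cdh5 (0.26, unadjusted limma p 0.0310) the groups did not overlap. Over all genes 3.18% had the groups apart with knockout higher. An unadjusted limma p under 0.05 was reached by 0.933% of all genes in that direction and by 1.70% in either direction. Of the 9 markers of meninges and fibroblasts 2 were higher and 7 lower in knockout. Lum, a fibroblast gene below the background guide, differed by -0.30 (unadjusted limma p 0.00511). Dcn, of the same list and with a mean of 9.75, differed by 0.38 (interval -0.006 to 0.77), and Foxc1 by 0.06. Of the 13 spinal cord markers 9 were higher and 4 lower in knockout. For Nkx2-2 (0.30, unadjusted limma p 0.00948) and Olig2 (0.24, unadjusted limma p 0.0341), both higher, the groups did not overlap. No member of any of these lists passed the test after adjustment, and their part in the Hox values was not tested.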

How the data were processed

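RNA from 6 samples of lumbar cord was hybridised to whole-transcript Affymetrix arrays after amplification and biotin labelling, per the labels' protocols. The deposited values are log2 signals. The submitters' processing notes name RMA for this step, with no version. RMA equalises distributions between arrays and compresses small differences. The table holds 35557 rows. Platform annotation gave 1 symbol for 21789 rows, several for 1621 and none for 12147. The row of highest mean stood for a gene, with symbols updated through RefSeq (GRCm38.p6). Knockout and wild type were compared with limma 3.58.1 (R 4.3.3; lmFit, eBayes, group as the only term, two-sided, Benjamini-Hochberg over 19938 genes, threshold 0.05). No filter was applied. The members, lists and alternatives were chosen with earlier results of these data known. Genes named are the 37 members, Tnc, and genes of fixed partner, regulator, readout, sex-linked and marker lists. Nkx1-2 and the genes given beside it were named after their values were seen. P-values measure only the spread between these 6 samples, whose number limits the precision. The fit was tested on simulated data. Same-numbered arrays deviated with correlations of 0.35, -0.07 and 0.45. The highest correlations with a knockout array of another number were 0.05, 0.28 and 0.01. Replicates 1 and 3 thus deviated alike by number and replicate 2 did not. The labels state no pairing, so the main fit used none, and a replicate block was fitted as an alternative. Alternatives were each array left out, a replicate block, filters on dim genes, variance models, array weights, other normalizations, averaged rows and a sex term. Leaving out group 13, the sex term for the slope and the group 13 median were added after seeing the data. Figures used matplotlib 3.10.9.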

Additional observations from a re-analysis of the deposited data

How the results depend on the processing

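No Hox gene passed the test under any of the 16 alternatives to the fit. Over all genes the count was 0 except without knockout replicate 2, where 4 passed (range 0 to 4 over the arrays left out), and Tnc stayed lower throughout. A replicate block, which made 636 genes reach an unadjusted p under 0.05 against 339 without it, changed no call. For Hoxd13 the block gave an unadjusted p of 0.00880 at the same difference of 0.30, and for Hoxa13 0.0457 at 0.28, both with adjusted p near 1. With array weights, which gave wild-type replicates 1 and 3 weights of 0.41 and 0.27 and wild-type replicate 2 a weight of 6.39, 4181 genes had an unadjusted p under 0.05, among them 12 members. The median difference of the members lay between -0.04 and 0.05 over all alternatives, within the spread between arrays. Under renewed quantile normalization the gap of Hoxb13 on wild-type replicate 1 was -2.11 log2 units. With array weights the sign turned for Hoxa3 (-0.10), Hoxa9 (-0.0006), Hoxa13 (-0.041), Hoxb1 (0.13), Hoxb13 (-0.61), Hoxc12 (-0.034), Hoxc13 (-0.13) and Hoxd1 (0.044). With a sex term it turned for Hoxa2 (0.0085), Hoxa5 (0.017), Hoxa6 (0.032), Hoxd1 (0.085), Hoxd3 (0.0043), Hoxd4 (0.020) and Hoxd12 (0.081). With single arrays left out, 16 of 37 members kept their sign and 21 turned, over these ranges: Hoxa3 (-0.13 to 0.10), Hoxa4 (-0.033 to 0.12), Hoxa5 (-0.050 to 0.040), Hoxa9 (-0.017 to 0.064), Hoxa11 (-0.0011 to 0.22), Hoxa13 (-0.011 to 0.47), Hoxb1 (-0.23 to 0.070), Hoxb3 (-0.086 to 0.032), Hoxb6 (-0.17 to 0.019), Hoxb9 (-0.073 to 0.0072) and Hoxb13 (-0.39 to 1.19); Hoxc4 (-0.0023 to 0.14), Hoxc6 (-0.0027 to 0.20), Hoxc8 (-0.075 to 0.20), Hoxc9 (-0.017 to 0.11), Hoxc11 (-0.017 to 0.24), Hoxd1 (-0.15 to 0.032), Hoxd8 (-0.14 to 0.058), Hoxd9 (-0.056 to 0.11), Hoxd11 (-0.22 to 0.018) and Hoxd12 (-0.22 to 0.089). The cause was not tested. Other normalizations, filters, variance models, averaged rows and the replicate block turned no member's sign, and Hoxd1 had no value under either filter on dim genes.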
